A study of Mus musculus with 18 samples.

Results

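Chromatin accessibility was described around 8 interferon regulatory factor genes, Irf1, Irf2, Irf3, Irf4, Irf5, Irf7, Irf8 and Irf9, in bone marrow-derived macrophages (BMDMs) that lacked Il10. The members were the ATAC-seq peaks that overlapped the body of 1 of these genes extended by 25 kb on both sides, in the mm9 genome with the GENCODE M1 annotation. This rule found 167 peaks of 194284 in all, 59 that the authors classed as promoter peaks and 108 as distal peaks. ATAC-seq counts the cuts of a transposase in open chromatin, so a higher count in a peak stands for a more accessible region. BMDMs came from 3 Il10-/- mice on the C57BL/6J background, 12-week-old males by the methods of the study, and were cultured for 6 days in medium conditioned by L929 cells. There were 3 libraries in each of 6 conditions, 18 libraries in all. The series describes the samples as matched between conditions, so libraries with the same replicate number are taken here to come from the same mouse, which the labels do not state outright. The unstimulated group is labelled untreated and received no LPS. The (+)-JQ1 group received 500 nM of (+)-JQ1, an inhibitor of the BET bromodomain proteins, and the IL-10 group received 10 ng/mL of recombinant IL-10. In the 3 groups with LPS, called LPS, LPS + (+)-JQ1 and LPS + IL-10 here, 12 h with no treatment (vehicle, by the methods), inhibitor or cytokine were followed by 4 h with 50 ng/mL of lipopolysaccharide (LPS). All groups carried the Il10 deletion, so the IL-10 groups are the ones in which the missing cytokine was added back, and no wild-type library was analysed here.

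Interferon regulatory factors (IRFs) share a DNA-binding domain that recognises repeats of GAAA, the core of the interferon-stimulated response element. LPS signals through TLR4, whose adaptor TRIF leads to phosphorylation of IRF3 and to the transcription of interferon beta. Secreted interferon then acts through its receptor on a STAT complex that contains IRF9, which raises IRF7 and many antiviral genes. IRF1 is an activator that is itself induced by interferons and NF-kappaB, IRF2 binds the same elements and often antagonises it, and IRF5 acts downstream of MyD88 on inflammatory cytokine genes. IRF8 is a lineage factor of monocytes and macrophages that partners with PU.1, and IRF4 is known in macrophages for alternative activation.

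The numbers of peaks per gene were 21 for Irf1, 47 for Irf2, 17 for Irf3, 13 for Irf4, 16 for Irf5, 14 for Irf7, 22 for Irf8 and 17 for Irf9. A peak is named here by its gene and by the distance of the peak's centre from the 5′-most annotated start of that gene, with a plus sign along the direction of transcription. Irf2 is the longest gene, with a body of 107.7 kb, and has the most peaks. The windows of Irf2, Irf4 and Irf8 held no start of another coding gene. Those of Irf3 and Irf9 each held 5, among them Prmt1, Bcl2l12 and Rras near Irf3 and Psme1, Psme2 and Rnf31 near Irf9, and that of Irf7 held 3 (Phrf1, Cdhr5 and Sct), so a peak in these windows is a peak near the Irf gene and not necessarily one of its regulatory elements. Peak widths ran from 502 to 12088 bp with a median of 1412 bp, and the wide ones span several elements whose separate levels are not given. The 5′-most starts of Irf3 and Irf7 lay in no listed peak, as was the case for many genes (59% of 45981 annotated coding transcript starts lay in a peak), so accessibility at these points was not measured here and later starts stand in for them.

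The sequences below are those that the results turn on. The first set is the 250 bases before the annotated start of 3 genes, read from mm9 in the direction of transcription, because these are the 3 of the 8 Irf genes whose stretch held a match. The stretches before Irf3, Irf4, Irf5, Irf7 and Irf9 held none of the 5 motifs and are not shown, which says only that these letters are not in them. Capitals mark matches, on either strand, to the interferon response core (GAAANNGAAA), the AP-1 motif (TGANTCA), a PU.1 motif (GAGGAAGT), the STAT motif (TTCNNNGAA) or the kappaB motif. Over the 250 bases before the starts of 22367 coding genes, these were found in 3.37%, 6%, 2.24%, 6.83% and 7.69% of genes, respectively. The stretch before Irf1 held a STAT and a kappaB match, the one before Irf2 held an interferon response core, a STAT and a kappaB match, and the one before Irf8 held a pair of STAT matches.
Irf1, chr11:53583266-53583515 on the plus strand: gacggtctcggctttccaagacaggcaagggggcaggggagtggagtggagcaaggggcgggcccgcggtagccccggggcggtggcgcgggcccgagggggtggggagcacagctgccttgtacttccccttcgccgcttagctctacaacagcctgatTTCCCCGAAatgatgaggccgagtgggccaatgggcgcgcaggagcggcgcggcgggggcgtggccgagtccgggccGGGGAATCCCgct
Irf2, chr8:47824849-47825098 on the plus strand: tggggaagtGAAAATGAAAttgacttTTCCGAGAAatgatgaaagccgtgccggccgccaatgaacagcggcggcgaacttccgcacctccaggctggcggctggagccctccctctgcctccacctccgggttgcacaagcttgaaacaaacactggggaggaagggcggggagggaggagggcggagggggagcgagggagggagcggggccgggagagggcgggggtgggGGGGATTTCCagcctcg
Irf8, chr8:123260008-123260257 on the plus strand: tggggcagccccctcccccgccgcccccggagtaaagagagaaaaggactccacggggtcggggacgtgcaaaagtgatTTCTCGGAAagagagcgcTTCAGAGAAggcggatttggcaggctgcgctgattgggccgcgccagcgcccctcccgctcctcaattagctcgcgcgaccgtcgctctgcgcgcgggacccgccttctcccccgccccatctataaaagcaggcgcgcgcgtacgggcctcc

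The second set is the central 300 bases of 5 peaks whose levels are given further on, read on the plus strand of mm9. The Irf1 +26.9 kb peak had the largest rise with LPS of all Irf peaks, the 2 Irf7 peaks are among those that rose with LPS and were lower with (+)-JQ1 and IL-10, and the Irf8 +5.1 kb and Irf4 −11.0 kb peaks are peaks that IL-10 raised and lowered, respectively, with no called change under (+)-JQ1.
Irf1 +26.9 kb, chr11:53610222-53610521: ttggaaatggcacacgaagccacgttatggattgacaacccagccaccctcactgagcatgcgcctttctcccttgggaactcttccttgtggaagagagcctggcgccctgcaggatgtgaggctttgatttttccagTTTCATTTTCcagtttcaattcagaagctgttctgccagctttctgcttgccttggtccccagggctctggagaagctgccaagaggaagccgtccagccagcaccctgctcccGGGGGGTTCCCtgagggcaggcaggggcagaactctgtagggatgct
Irf7 +15.6 kb, chr7:148436627-148436926: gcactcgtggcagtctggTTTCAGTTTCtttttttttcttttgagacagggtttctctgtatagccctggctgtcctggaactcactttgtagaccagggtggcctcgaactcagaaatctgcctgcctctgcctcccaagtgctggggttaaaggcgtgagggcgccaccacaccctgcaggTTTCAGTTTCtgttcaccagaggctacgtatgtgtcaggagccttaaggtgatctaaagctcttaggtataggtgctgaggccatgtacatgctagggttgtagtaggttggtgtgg
Irf7 −14.5 kb, chr7:148466706-148467005: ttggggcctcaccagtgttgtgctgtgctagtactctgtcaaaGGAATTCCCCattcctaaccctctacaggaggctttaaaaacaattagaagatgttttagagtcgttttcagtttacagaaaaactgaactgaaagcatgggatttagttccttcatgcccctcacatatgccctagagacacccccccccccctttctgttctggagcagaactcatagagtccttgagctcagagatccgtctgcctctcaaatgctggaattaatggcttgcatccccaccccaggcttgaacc
Irf8 +5.1 kb, chr8:123265183-123265482: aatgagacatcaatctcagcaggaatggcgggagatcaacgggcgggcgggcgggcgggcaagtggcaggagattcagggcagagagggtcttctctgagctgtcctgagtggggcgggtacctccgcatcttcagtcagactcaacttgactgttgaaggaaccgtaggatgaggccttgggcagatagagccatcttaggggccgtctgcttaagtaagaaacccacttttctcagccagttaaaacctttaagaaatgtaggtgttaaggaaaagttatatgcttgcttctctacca
Irf4 −11.0 kb, chr13:30829992-30830291: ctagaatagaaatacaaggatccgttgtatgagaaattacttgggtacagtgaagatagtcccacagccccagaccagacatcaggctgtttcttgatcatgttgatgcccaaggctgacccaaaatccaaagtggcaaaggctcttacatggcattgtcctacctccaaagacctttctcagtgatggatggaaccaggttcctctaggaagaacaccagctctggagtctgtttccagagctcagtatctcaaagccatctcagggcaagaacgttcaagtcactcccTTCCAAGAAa
The centre of the Irf1 +26.9 kb peak held an interferon response core and a kappaB match, that of Irf7 +15.6 kb a pair of interferon response cores, that of Irf7 −14.5 kb a kappaB match and that of Irf4 −11.0 kb a STAT match. The centre of the Irf8 +5.1 kb peak held none of the 5 motifs, which says only that these letters are not in this window.

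Total counts in peaks ranged from 12020526 to 25908198 per library, and the Irf peaks held between 141 and 29232 reads each over the 18 libraries. Levels are given as CPM, the count of a peak relative to all reads in peaks, scaled by TMM, a normalisation that sets the bulk of the peaks equal between libraries. The unstimulated libraries stood apart in this scaling, with factors of 1.038 to 1.243 against 0.896 to 1.049 in the others, so comparisons with the unstimulated group depend more on the scaling than those among LPS-treated groups. Of 7 macrophage markers, 5 had a start-site peak (Csf1r and Cd68 had none), with medians over the libraries of 4.99 CPM per kb at Itgam and 17.1 to 36.4 at Emr1, Sfpi1, Mertk and Fcgr1, against a median of 1.64 CPM per kb over all peaks. Of the T cell genes, Cd3e and Cd3g had no start-site peak, while Lck had a median of 17.6 CPM per kb, as high as Fcgr1, and Cd2 one of 1.09. Of the B cell genes, Ms4a1 had none, and Cd79a and Pax5 had medians of 1.01 and 2.47. The neutrophil gene S100a8 had a median of 17.8, and Elane and Mpo had 1.51 and 1.96. Several summed lists moved with the groups. From unstimulated to LPS libraries, the T cell list went from 15.9 to 24.7 CPM to 25.8 to 31.1 CPM, the B cell list from 8.22 to 10.5 to 11.1 to 12.5, and the fibroblast list from 34.2 to 38.8 to 41.3 to 46. The fibroblast list was 34.8 to 39.5 CPM with LPS + (+)-JQ1, below the LPS range, and the B cell list was 9.27 to 10.8 CPM with LPS + IL-10, also below it. The neutrophil list was 10.3 to 12 CPM with LPS and 18.4 to 20.7 with LPS + IL-10, and 9.44 to 16.5 unstimulated, 17.2 to 20.3 with (+)-JQ1 alone and 17.7 to 19.8 with IL-10 alone. The macrophage list was 91.8 to 134 CPM unstimulated, 162 to 177 with (+)-JQ1 alone, 153 to 160 with IL-10 alone and 129 to 144 with LPS. The erythroid list ran from 8.68 to 17.3 CPM over all libraries. The part of these lists in the comparisons of the same groups was not tested. In bulk libraries, fewer cells with an open region and less opening per cell cannot be told apart.

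LPS stimulation raised accessibility around Irf1, Irf7 and Irf9, and to a lesser extent around Irf2, Irf5 and Irf8, while few peaks near Irf3 and Irf4 changed. Of the 167 Irf peaks, 53 rose and 3 fell, where a call needed a false discovery rate (FDR) below 0.05 together with an absolute log2 fold change above 0.5. These are 31.7% and 1.8% of the Irf peaks, while 11.7% of all 194230 tested peaks rose and 10.2% fell. The median log2 fold change was 0.36 over the Irf peaks and −0.03 over all tested peaks. By class, 39% of the Irf promoter peaks and 27.8% of the Irf distal peaks rose, against 14.3% and 11.1% of all promoter and distal peaks. All 56 called Irf peaks moved in the same direction in each of the 3 replicate pairs. The calls were made on these same libraries, so this agreement largely follows from the selection. When libraries were scaled by total counts, the median of all peaks was −0.26 and that of the Irf peaks 0.13, a difference close to that in the TMM fit, and 41 Irf peaks rose and 9 fell. With offsets fitted to the level of each peak (loess), 39 rose and 4 fell. Over all tested peaks, 12785 rose and 37571 fell with total counts, and 19074 and 17439 with loess offsets.

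Under LPS, Irf peaks were more often lower than higher with either treatment. With (+)-JQ1 before LPS, 24 Irf peaks were lower than with LPS alone (14.4%, against 3.49% of all tested peaks) and 0 were higher by edgeR and by DESeq2 (background 1.74%), with 6 higher at an unadjusted p under 0.05. With IL-10 before LPS, 26 Irf peaks were lower (15.6%, against 4.51%) and 2 were higher (1.2%, against 4.26%). The medians over the Irf peaks were −0.13 with (+)-JQ1 and −0.16 with IL-10, with all-peak medians of 0 and −0.01. The 3 LPS libraries enter all of these comparisons, so their lists of peaks are not independent and are given side by side only. Each called peak moved in the same direction in 3 of 3 replicate pairs in both comparisons, which again largely follows from calling on these same libraries. The count of Irf peaks lower with (+)-JQ1 was 18, 8 and 12 without replicates 1, 2 and 3, while that for IL-10 was 23, 20 and 24. The counts over all tested peaks dropped too. They went from 6770 to 5618, 3011 and 3604 with (+)-JQ1, and from 8768 to 6359, 4504 and 5233 with IL-10.

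**Figure D1:**
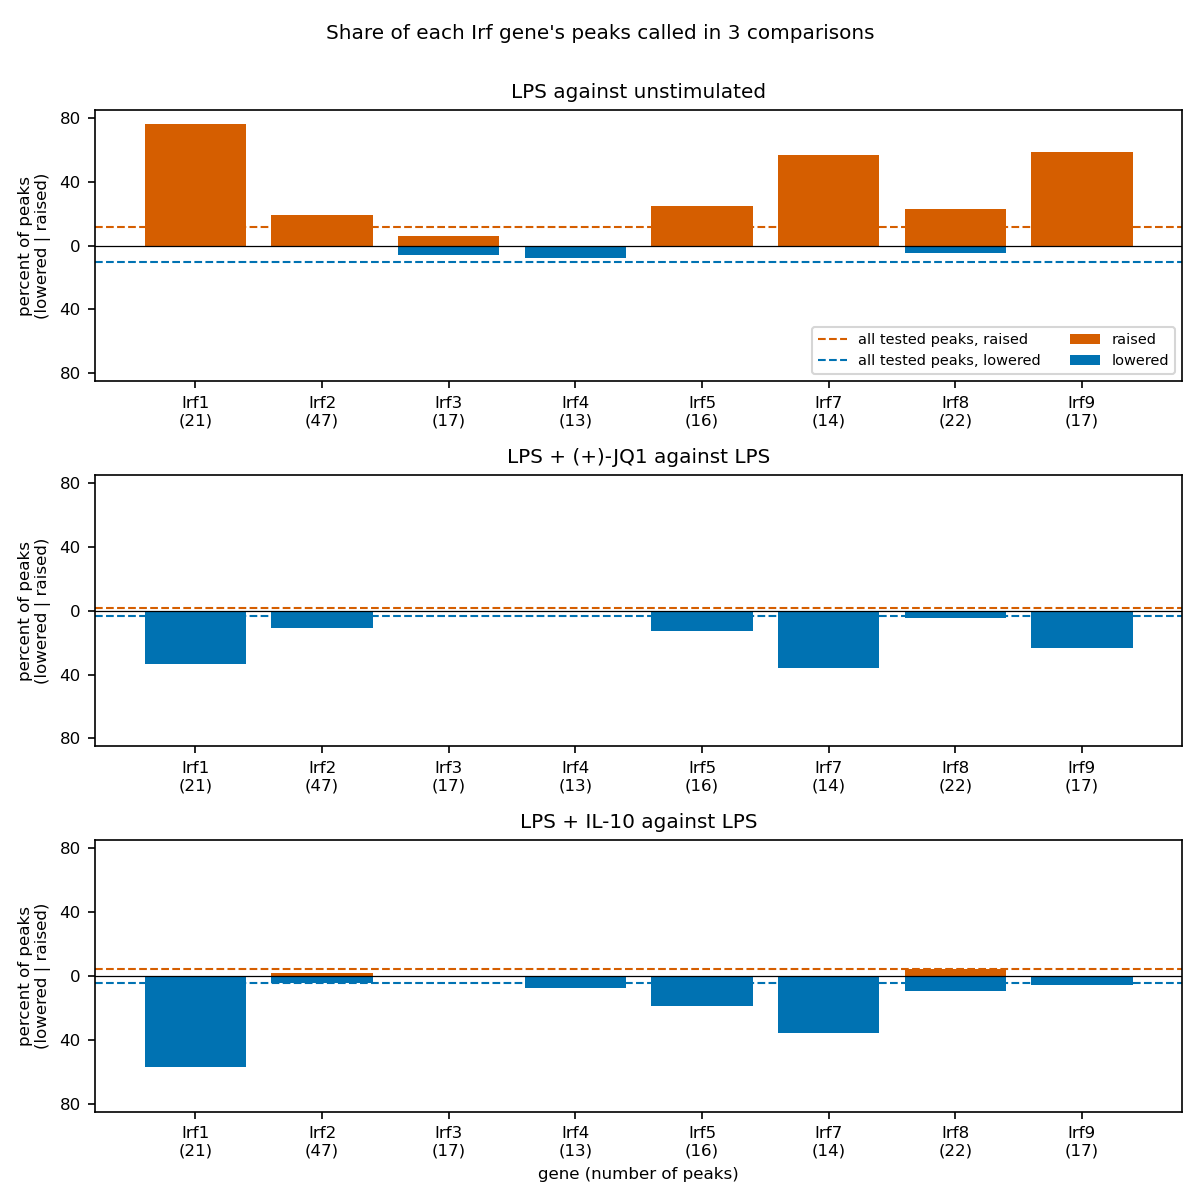
Percent of each gene's peaks that were raised (upward bars) or lowered (downward bars) in 3 comparisons, with the number of peaks per gene under its name. Dashed lines give the percent of all tested peaks called in that direction. Irf1, Irf7 and Irf9 have 76.2%, 57.1% and 58.8% of their peaks raised by LPS, and 57.1% of the Irf1 peaks were lower with IL-10.

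Irf1, the inducible activator, had the broadest response. LPS raised 16 of its 21 peaks (15 by DESeq2), from the Irf1 −11.1 kb peak to the last one at +34.4 kb. It lowered 0 by edgeR and DESeq2, with 0 lower at an unadjusted p under 0.05. Summed over the 21 peaks, accessibility was 181 ± 16.1 CPM in unstimulated BMDMs (mean ± SD, n = 3 for each such value), 444 ± 6.47 with LPS, 333 ± 17.7 with LPS + (+)-JQ1 and 261 ± 8.14 with LPS + IL-10. The ranges of these 4 groups did not overlap. The start-site peak (Irf1 +2.5 kb, chr11:53583111-53588951) spans the gene start and coding exons, and exons of the overlapping Gm17334. It read 42.7, 52.7 and 63.1 CPM in unstimulated replicates 1, 2 and 3 and 101, 99.3 and 105 CPM with LPS (log2 fold change 0.95 ± 0.13, FDR = 6.3e-09, given here and in what follows with ± its standard error and with the FDR of edgeR's quasi-likelihood test). The unstimulated values spread widely and lay below every LPS value, and with loess offsets the change was below the threshold. With LPS + (+)-JQ1 the start-site peak read 89.6, 91.7 and 82.5 CPM (−0.21 ± 0.13, FDR = 0.42), below the LPS values but short of the threshold. With LPS + IL-10 it read 63.1, 66.2 and 66.7 CPM and fell (−0.64 ± 0.13, FDR = 0.0002), a call that was also lost with loess offsets.

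The largest changes at Irf1 lay downstream of the start. The Irf1 +10.9 kb peak (chr11:53591019-53597786), 6768 bp wide, covers the 3′ untranslated exon of Irf1 and part of the neighbouring Gm12216. It read 19.5, 20.8 and 22.7 CPM unstimulated and 121, 121 and 129 CPM with LPS (2.55 ± 0.14, FDR = 2.1e-30). It read 74.7, 63.4 and 60.4 CPM with LPS + (+)-JQ1 (−0.90 ± 0.13, FDR = 1.3e-07) and 53.6, 47 and 44.7 CPM with LPS + IL-10 (−1.35 ± 0.13, FDR = 3.5e-14). The 4 groups did not overlap, and both treated groups stayed above the unstimulated one. The Irf1 +26.9 kb peak, an 831 bp region in an intron of Gm12216 whose centre is printed above, was low at rest. It read 1.54, 1.7 and 2.08 CPM unstimulated and 17.8, 13.6 and 13.8 CPM with LPS (3.08 ± 0.20, FDR = 3.5e-26), an 8.45-fold rise. With LPS + (+)-JQ1 it read 7.52, 7.75 and 8.73 CPM (−0.91 ± 0.16, FDR = 1.8e-05), and with LPS + IL-10 8.38, 5.33 and 6.75 CPM (−1.14 ± 0.16, FDR = 4.3e-08). These calls at +10.9 kb and +26.9 kb held in all 12 alternative fits.

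Between +6.5 kb and +34.4 kb, 12 Irf1 peaks lay in a row, and 11 of them rose with LPS. The exception was Irf1 +25.4 kb (0.31 ± 0.14, FDR = 0.1). The largest fall with (+)-JQ1 under LPS was at Irf1 +30.9 kb, from 4.23, 2.4 and 2.69 to 2.69, 1.64 and 0.737 CPM (−0.99 ± 0.29, FDR = 0.024), a call lost in DESeq2 and without replicate 2 or 3. The largest fall with IL-10 was at Irf1 +21.3 kb, a 734 bp peak with few reads, from 1.47, 1.4 and 1.73 to 0.508, 0.116 and 0.689 CPM (−1.74 ± 0.42, FDR = 0.0022), lost without replicate 2. At Irf1 +17.9 kb the level went from 1.88 ± 0.613 CPM unstimulated to 6.97 ± 0.954 with LPS, and was 3.47 ± 0.685 with LPS + (+)-JQ1 and 2.49 ± 0.407 with LPS + IL-10. In all, (+)-JQ1 lowered 7 Irf1 peaks, every one of them between +6.5 kb and +30.9 kb, and IL-10 lowered 12, including the start-site peak and Irf1 −6.4 kb (−0.55 ± 0.13, FDR = 0.0019; lost with loess offsets, total counts and without replicate 2).

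Irf7, the interferon-induced amplifier of the type I response, had 8 of 14 peaks raised and 0 lowered by LPS (0 also in DESeq2 and at an unadjusted p under 0.05). The summed level was 61.3 ± 2.75 CPM unstimulated, 160 ± 5.97 with LPS, 127 ± 9.15 with LPS + (+)-JQ1 and 109 ± 11.2 with LPS + IL-10. The start-site peak (Irf7 +0.9 kb, chr7:148450913-148451966) covers a later coding start of the gene. It read 7.03, 9.89 and 10.1 CPM unstimulated and 18.9, 22.3 and 21.8 CPM with LPS (1.21 ± 0.15, FDR = 3.9e-11), with no overlap. It read 23.4, 22.2 and 20.9 CPM with LPS + (+)-JQ1 (0.08 ± 0.14, FDR = 0.85), which overlapped the LPS values. With LPS + IL-10 it read 17.5, 16.4 and 15.5 CPM (−0.35 ± 0.14, FDR = 0.096), below the LPS values but within the log2 threshold of 0.5.

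Several peaks beyond the 3′ end of Irf7, in the gene Phrf1, rose by more than the start-site peak, while the 2 farthest, Irf7 +19.1 kb (0.29 ± 0.39, FDR = 0.64) and Irf7 +24.1 kb (−0.02 ± 0.33, FDR = 0.98), were not called. Irf7 +4.5 kb (chr7:148445346-148450504) spans the 3′ part of Irf7 and exons of Phrf1. It read 10.8, 12 and 10.9 CPM unstimulated and 59.9, 49.3 and 53.1 CPM with LPS (2.27 ± 0.14, FDR = 3.0e-26). Irf7 +8.0 kb, which covers exons and a transcript start of Phrf1, had the largest rise at this gene, from 2.48, 2.97 and 1.81 to 13.8, 13 and 15.6 CPM (2.55 ± 0.19, FDR = 2.4e-22). Both were lower with either treatment. Irf7 +8.0 kb read 7.52, 9.88 and 8.18 CPM with LPS + (+)-JQ1 (−0.72 ± 0.16, FDR = 0.00085; lost without replicate 3) and 8.13, 6.66 and 7.21 CPM with LPS + IL-10 (−0.94 ± 0.16, FDR = 4.3e-06). Irf7 −14.5 kb, an intergenic peak near Sct with few reads, had the largest falls at any Irf gene. It read 1.14, 0.33 and 0.767 CPM unstimulated and 3.86, 3.35 and 3.05 CPM with LPS (2.22 ± 0.34, FDR = 9.2e-08). It read 1.46, 1.09 and 0.698 CPM with LPS + (+)-JQ1 (−1.72 ± 0.32, FDR = 5.8e-05) and 1.07, 0.637 and 1.15 CPM with LPS + IL-10 (−1.82 ± 0.32, FDR = 9.8e-06), levels near those of unstimulated BMDMs. Each treatment lowered 5 of the 14 peaks, against the same LPS libraries. The other peaks called with (+)-JQ1 were Irf7 +11.3 kb (−0.76 on the log2 scale) and Irf7 +15.6 kb (−0.94), where the log2 fold changes with IL-10 were −1.02 and −1.11.

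**Figure D2:**
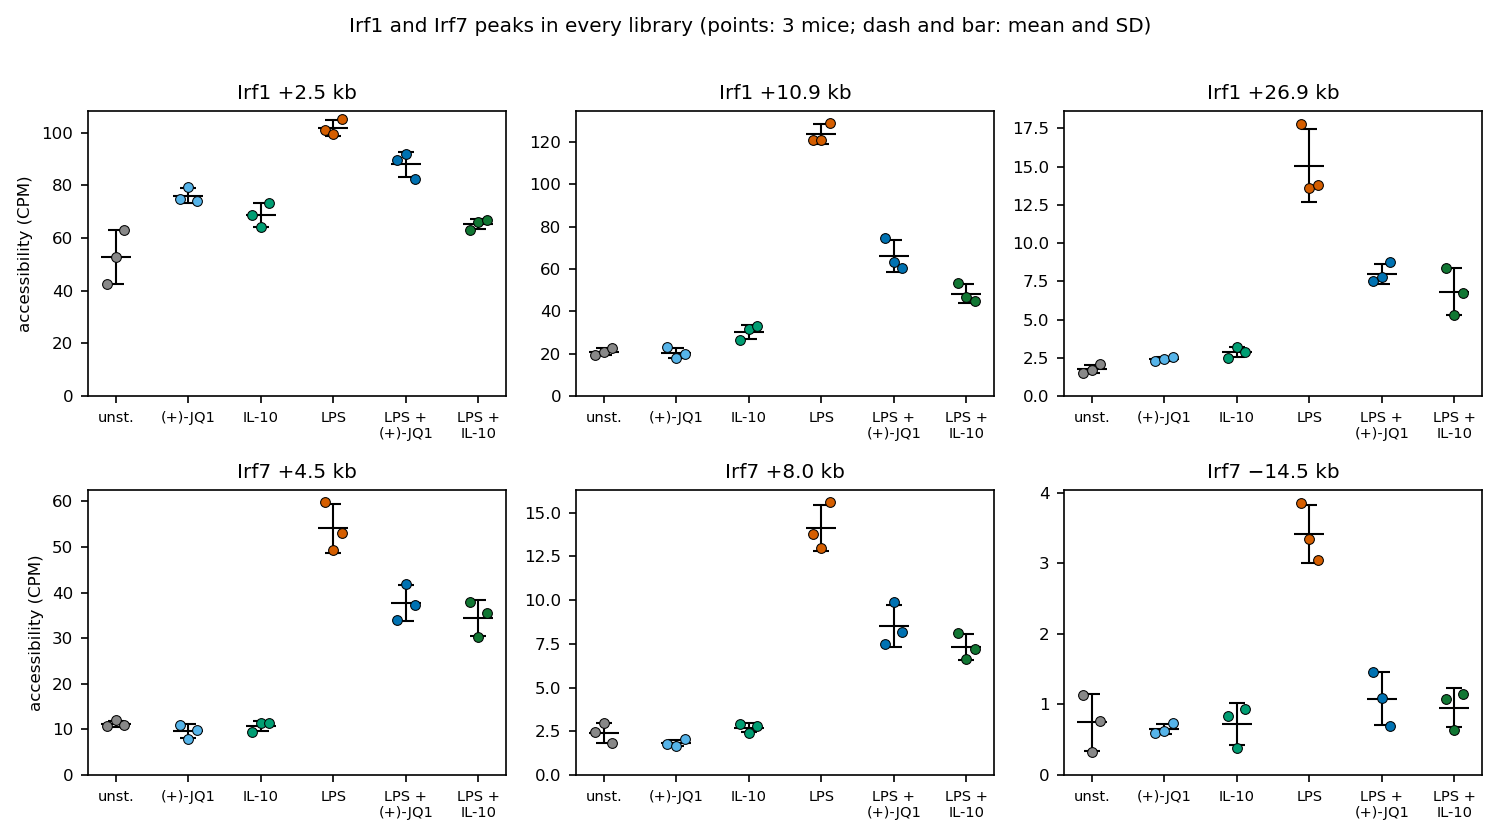
Accessibility in CPM of 3 Irf1 and 3 Irf7 peaks in the 6 conditions, with 1 point per mouse, a dash for the mean and a bar for the SD. Irf1 +26.9 kb goes from 1.77 CPM unstimulated to 15.1 CPM with LPS and 6.82 CPM with LPS + IL-10, and Irf7 −14.5 kb returns from 3.42 to 1.08 and 0.951 CPM with the treatments, and in all 6 panels every library without LPS lies below every LPS library.

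Irf9, the DNA-binding subunit of the interferon-induced STAT complex, had 10 of 17 peaks raised and 0 lowered by LPS (0 also in DESeq2 and at an unadjusted p under 0.05). All 10 lay between −25.0 kb and +11.5 kb, a stretch that also holds Psme1, Psme2 and Rnf31, genes of the proteasome activator and of linear ubiquitin assembly. The start-site peak (Irf9 −0.2 kb, chr14:56220974-56223460) read 26.2, 25.1 and 36.4 CPM unstimulated and 58.3, 52.2 and 57 CPM with LPS (0.93 ± 0.14, FDR = 1.9e-08). It read 54, 55.9 and 52.4 CPM with LPS + (+)-JQ1 (−0.05 ± 0.13, FDR = 0.91) and 43, 39 and 39.7 CPM with LPS + IL-10 (−0.46 ± 0.13, FDR = 0.013). The LPS + (+)-JQ1 values overlapped those of LPS, and the LPS + IL-10 values lay below them by less than the log2 threshold of 0.5. The largest rise was at the 533 bp Irf9 −19.3 kb peak in Fam158a, from 1.61, 1.1 and 0.986 to 2.66, 3.3 and 4 CPM (1.44 ± 0.28, FDR = 2.7e-05), and it was also the one that fell most with (+)-JQ1, to 1.46, 1.8 and 1.47 CPM (−1.06 ± 0.27, FDR = 0.0053; lost without replicate 2 or 3).

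The 4 Irf9 peaks that (+)-JQ1 lowered were Irf9 −19.3 kb and 3 in a row over and beyond the 3′ part of the gene. At Irf9 +4.3 kb, over exons of Irf9, the log2 fold change was 1.23 ± 0.15, FDR = 3.1e-11 with LPS and −0.58 ± 0.14, FDR = 0.0039 with (+)-JQ1 under LPS. At Irf9 +8.2 kb, intergenic towards Rec8, the LPS libraries read 15.4, 14.4 and 15.5 CPM, above 7.43, 7.09 and 6.3 CPM unstimulated, and LPS + (+)-JQ1 libraries read 8.06, 7.7 and 8.92 CPM (−0.87 ± 0.15, FDR = 9.2e-06). The (+)-JQ1 values lay just above the unstimulated ones, and this call held in all 12 alternatives. IL-10 lowered 1 Irf9 peak, Irf9 −12.3 kb over exons of Psme2 and Rnf31, from 105, 94.4 and 87.9 to 77.6, 70.2 and 52.6 CPM (−0.52 ± 0.14, FDR = 0.0053; lost with total counts, loess offsets and without replicate 2 or 3). With IL-10, 8 of the 17 were lower at an unadjusted p under 0.05.

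LPS raised a smaller share of the peaks of Irf3 (5.88%) and Irf5 (25%) than of those of Irf1, Irf7 and Irf9. The share at Irf5 lay slightly above those at Irf2 (19.1%) and Irf8 (22.7%). At Irf3, 1 of 17 peaks rose and 1 fell with LPS, and the summed level was 133 ± 13.3 CPM unstimulated and 143 ± 10.7 with LPS, ranges that overlapped. The peak that rose, Irf3 −13.2 kb, lies over exons of Prmt1 (0.53 ± 0.14, FDR = 0.0017; lost with total counts, loess offsets, the filter at 10 counts and without replicate 1). The peak that fell, Irf3 +27.8 kb in the 3′ untranslated exon of Prr12, went from 12, 14 and 15.3 to 8.13, 7.14 and 7.65 CPM (−0.85 ± 0.15, FDR = 3.6e-06) and held in all 12 alternatives. The 10990 bp start-site peak (Irf3 +6.3 kb), which also covers Bcl2l12 and Scaf1, read 26.4, 25.8 and 29.4 CPM unstimulated and 23.9, 27.3 and 20.4 CPM with LPS (−0.19 ± 0.13, FDR = 0.33), with overlapping values. Under LPS, its log2 fold change was 0.15 ± 0.13, FDR = 0.64 with (+)-JQ1 and 0.21 ± 0.13, FDR = 0.37 with IL-10. Neither treatment moved any of the 17 Irf3 peaks past the threshold by edgeR or DESeq2, with 1 higher and 0 lower with (+)-JQ1 and 1 higher and 1 lower with IL-10 at an unadjusted p under 0.05.

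At Irf5, 4 of 16 peaks rose with LPS and 0 fell (0 also in DESeq2 and at an unadjusted p under 0.05). The largest rise was at Irf5 +30.4 kb (chr6:29505598-29508424), in the neighbouring Tnpo3, a nuclear import receptor gene. It read 4.48, 3.9 and 4.49 CPM unstimulated and 14.2, 13.6 and 13.3 CPM with LPS (1.67 ± 0.16, FDR = 4.2e-15), and 10.1, 9.06 and 9.07 CPM with LPS + (+)-JQ1 (−0.55 ± 0.15, FDR = 0.013; lost without replicate 2 or 3). The start-site peak (Irf5 +1.0 kb) rose from 34.8, 42.4 and 51.3 to 61.7, 59 and 61.5 CPM (0.50 ± 0.13, FDR = 0.0026), at the edge of the threshold, and was not called under 7 of the 12 alternatives. Its log2 fold change under LPS was 0.14 ± 0.13, FDR = 0.64 with (+)-JQ1 and −0.34 ± 0.13, FDR = 0.086 with IL-10. IL-10 lowered 3 neighbouring peaks towards and beyond the 3′ end of the gene. Irf5 +15.4 kb, over the last exons of Irf5 and the 3′ exon of Tnpo3, read 16.9, 17.8 and 15.8 CPM with LPS and 7.72, 9.04 and 8.22 CPM with LPS + IL-10 (−1.02 ± 0.15, FDR = 5.1e-08). It was also the peak with the largest called (+)-JQ1 effect at this gene, at 10.1, 11.1 and 13.1 CPM (−0.55 ± 0.14, FDR = 0.0069, lost without replicate 1 or 2). Irf5 +20.3 kb read 13.4, 12.6 and 12.4 CPM with LPS and 7.11, 5.5 and 6.11 CPM with LPS + IL-10 (−1.03 ± 0.15, FDR = 2.0e-07). The third, Irf5 +13.4 kb in an intron, had a log2 fold change of −0.66 ± 0.17, FDR = 0.0035, lost without replicate 1.

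At Irf2, the antagonist, 9 of 47 peaks rose with LPS and 0 fell (0 also in DESeq2 and at an unadjusted p under 0.05), and most peaks were not called. At an unadjusted p under 0.05, 19 were higher, and the median log2 fold change was 0.31, against −0.03 over all tested peaks. The summed level was 357 ± 37.6 CPM unstimulated and 470 ± 11.7 with LPS, and then 440 ± 20.1 with LPS + (+)-JQ1 and 459 ± 19.5 with LPS + IL-10. The start-site peak (Irf2 +0.5 kb, chr8:47825012-47826153), in the 5′ untranslated exon, read 14.4, 16.3 and 20.2 CPM unstimulated and 35.2, 32.2 and 32.9 CPM with LPS (0.98 ± 0.14, FDR = 8.7e-09). It read 34, 37.1 and 31.7 CPM with LPS + (+)-JQ1 (0.03 ± 0.13, FDR = 0.94) and 25.5, 27 and 23 CPM with LPS + IL-10 (−0.41 ± 0.13, FDR = 0.033). Neither was a called change, although the LPS + IL-10 values lay below the LPS ones. The largest rise, at Irf2 −8.3 kb, was from 0.602, 0.549 and 0.822 to 1.84, 1.3 and 1.55 CPM (1.24 ± 0.37, FDR = 0.0072), at low counts and lost without replicate 1 or 2. The largest fall with IL-10 was at the intronic Irf2 +16.7 kb peak, from 5.74, 5.64 and 6.21 to 3.35, 2.55 and 3.67 CPM (−0.87 ± 0.21, FDR = 0.0021; lost without replicate 2), and Irf2 +129.3 kb was higher (0.53 ± 0.14, FDR = 0.0041; lost without replicate 2). (+)-JQ1 lowered 5 Irf2 peaks (−5.2, +36.3, +83.2, +89.3 and +117.8 kb), and each of these 5 calls was lost without replicate 2. The largest was at Irf2 +117.8 kb, which read 19.5, 19.5 and 24.4 CPM unstimulated. LPS libraries read 19.4, 20.1 and 27.6 CPM there, and LPS + (+)-JQ1 libraries read 12.4, 14.5 and 16.8 CPM (−0.61 ± 0.14, FDR = 0.0026).

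Irf8 and Irf4, the lineage factors, had no called change with LPS, or with either treatment under LPS, at their start sites. The Irf8 start-site peak (Irf8 +0.4 kb, chr8:123259870-123261436), in the 5′ untranslated exon, read 25.6, 30.7 and 39.3 CPM unstimulated and 41.9, 39.6 and 42.7 CPM with LPS (0.37 ± 0.14, FDR = 0.031), below the threshold, and with loess offsets the log2 fold change was −0.04. Its log2 fold change under LPS was 0.09 ± 0.13, FDR = 0.8 with (+)-JQ1 and −0.09 ± 0.13, FDR = 0.75 with IL-10. LPS raised 5 of 22 Irf8 peaks and lowered 1. Of the 5, 4 lay upstream between −24.5 and −10.5 kb, inside an intron of the overlapping Gm20388. The largest rise, at Irf8 −24.5 kb (chr8:123234858-123236672), was from 3.88, 3.3 and 3.67 to 12.3, 11 and 14.2 CPM (1.79 ± 0.18, FDR = 6.6e-15). With LPS + IL-10 this peak read 6.3, 6.72 and 6.71 CPM (−0.92 ± 0.16, FDR = 1.2e-05), and with LPS + (+)-JQ1 10.2, 8.46 and 8.45 CPM (−0.47 ± 0.16, FDR = 0.061), which did not pass. The fifth, Irf8 +23.4 kb just beyond the gene's 3′ end, was lower with both treatments (−0.58 ± 0.13, FDR = 0.0017 with (+)-JQ1, lost without replicate 2 or 3, and −0.53 ± 0.13, FDR = 0.0036 with IL-10, lost with loess offsets, total counts and without replicate 2). The peak that fell with LPS, Irf8 +44.5 kb, held few reads (−1.13 ± 0.34, FDR = 0.0087; lost without replicate 1 or 2). Irf8 +5.1 kb, over an Irf8 exon, was higher with IL-10 under LPS. It read 9.84, 9.4 and 11.7 CPM unstimulated, 8.18, 8.94 and 9.38 with LPS and 15.1, 14.7 and 15.8 with LPS + IL-10 (0.79 ± 0.14, FDR = 1.7e-05). The LPS + IL-10 values lay above the LPS and unstimulated ones and overlapped those of (+)-JQ1 alone (13.3, 15.1 and 15.1 CPM), and the call held in all 12 alternatives.

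Irf4 had the lowest summed level of the 8 genes, 50.3 ± 4.65 CPM unstimulated over its 13 peaks and 52.4 ± 4.05 with LPS. Its peaks also cover the least length (17.4 kb). Per kb, the unstimulated level of 2.9 CPM was close to that of Irf2 (2.85) and above that of Irf7 (2.39). LPS raised 0 of the 13 Irf4 peaks by edgeR and DESeq2 (2 were higher at an unadjusted p under 0.05) and lowered 1, Irf4 −0.8 kb just before the gene, from 2.01, 2.64 and 1.64 to 1.42, 0.849 and 1.02 CPM (−0.92 ± 0.32, FDR = 0.024; lost with loess offsets and without replicate 2). The start-site peak (Irf4 +0.8 kb) read 9.57, 11.7 and 12 CPM unstimulated and 13.5, 12.1 and 12.9 CPM with LPS (0.21 ± 0.14, FDR = 0.31), not a called change, and the sign turned with total counts (−0.02) and loess offsets (−0.01). Under LPS its log2 fold change was −0.30 ± 0.14, FDR = 0.25 with (+)-JQ1 and −0.24 ± 0.14, FDR = 0.31 with IL-10. (+)-JQ1 changed 0 of the 13 peaks by edgeR and DESeq2, with 1 higher and 2 lower at an unadjusted p under 0.05. IL-10 lowered 1, the intergenic Irf4 −11.0 kb peak, from 7.53, 6.69 and 6.93 to 3.45, 4.98 and 4.5 CPM (−0.71 ± 0.18, FDR = 0.0026; lost without replicate 1), while the level without LPS was 5.76, 6.15 and 7.18 CPM.

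**Figure D3:**
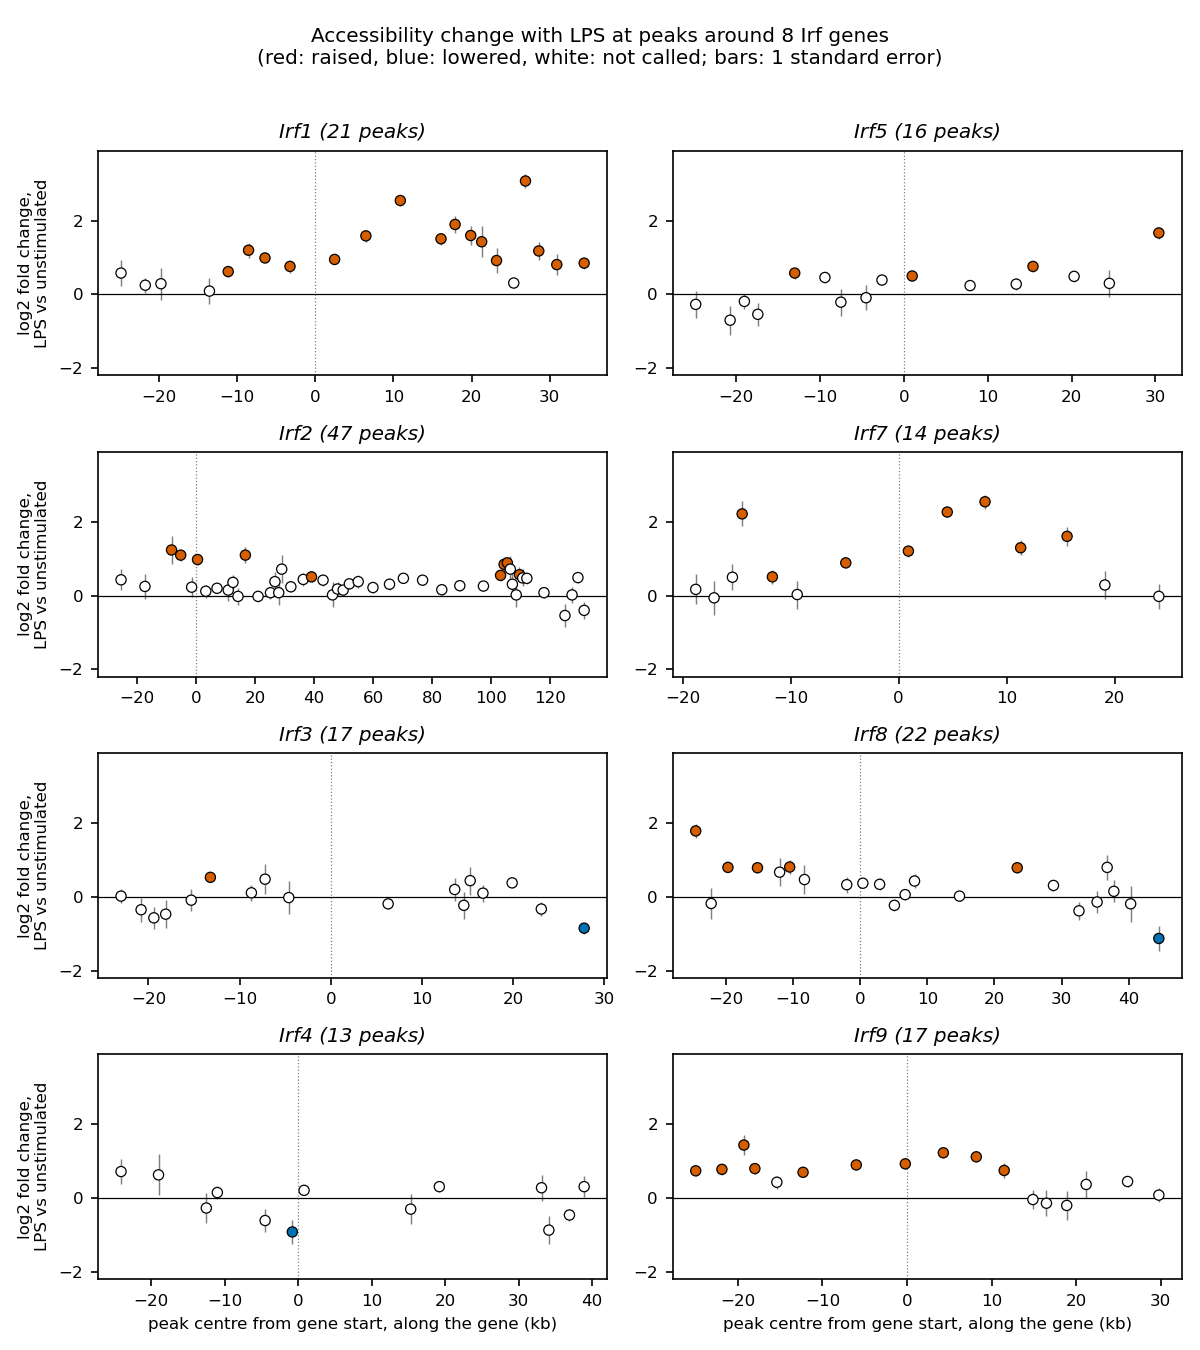
Log2 fold change with LPS of every Irf peak against the distance of its centre from the 5′-most gene start in kb, counted along the gene, with bars of 1 standard error. Raised peaks are red, lowered peaks blue and peaks not called white. Most Irf1 peaks on the downstream flank rise, by up to 3.08, and several Irf7 peaks rise around and beyond the 3′ end. Most Irf2 peaks are not called, with a median of 0.31.

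Levels were compared between genes per kb of peak, at the start-site peaks. In unstimulated BMDMs the order was Irf8 (20.3 ± 4.43 CPM per kb), Irf2 (14.8), Irf5 (13.9), Irf9 (11.7), Irf1 (9.04), Irf7 (8.54), Irf4 (5.08) and Irf3 (2.47). From Irf8 down to Irf7, neighbours in this order had overlapping replicate values, whereas Irf7 and Irf4, and Irf4 and Irf3, did not overlap. With LPS the order was Irf2 (29.3), Irf8 (26.4), Irf9 (22.5), Irf7 (19.9), Irf5 (19.7), Irf1 (17.4), Irf4 (5.87) and Irf3 (2.17), with overlap between Irf9 and Irf7 and between Irf7 and Irf5. A level per kb depends on how far the peak reaches, and the start-site peaks of Irf3 and Irf1 are 10990 and 5841 bp wide.

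**Figure D4:**
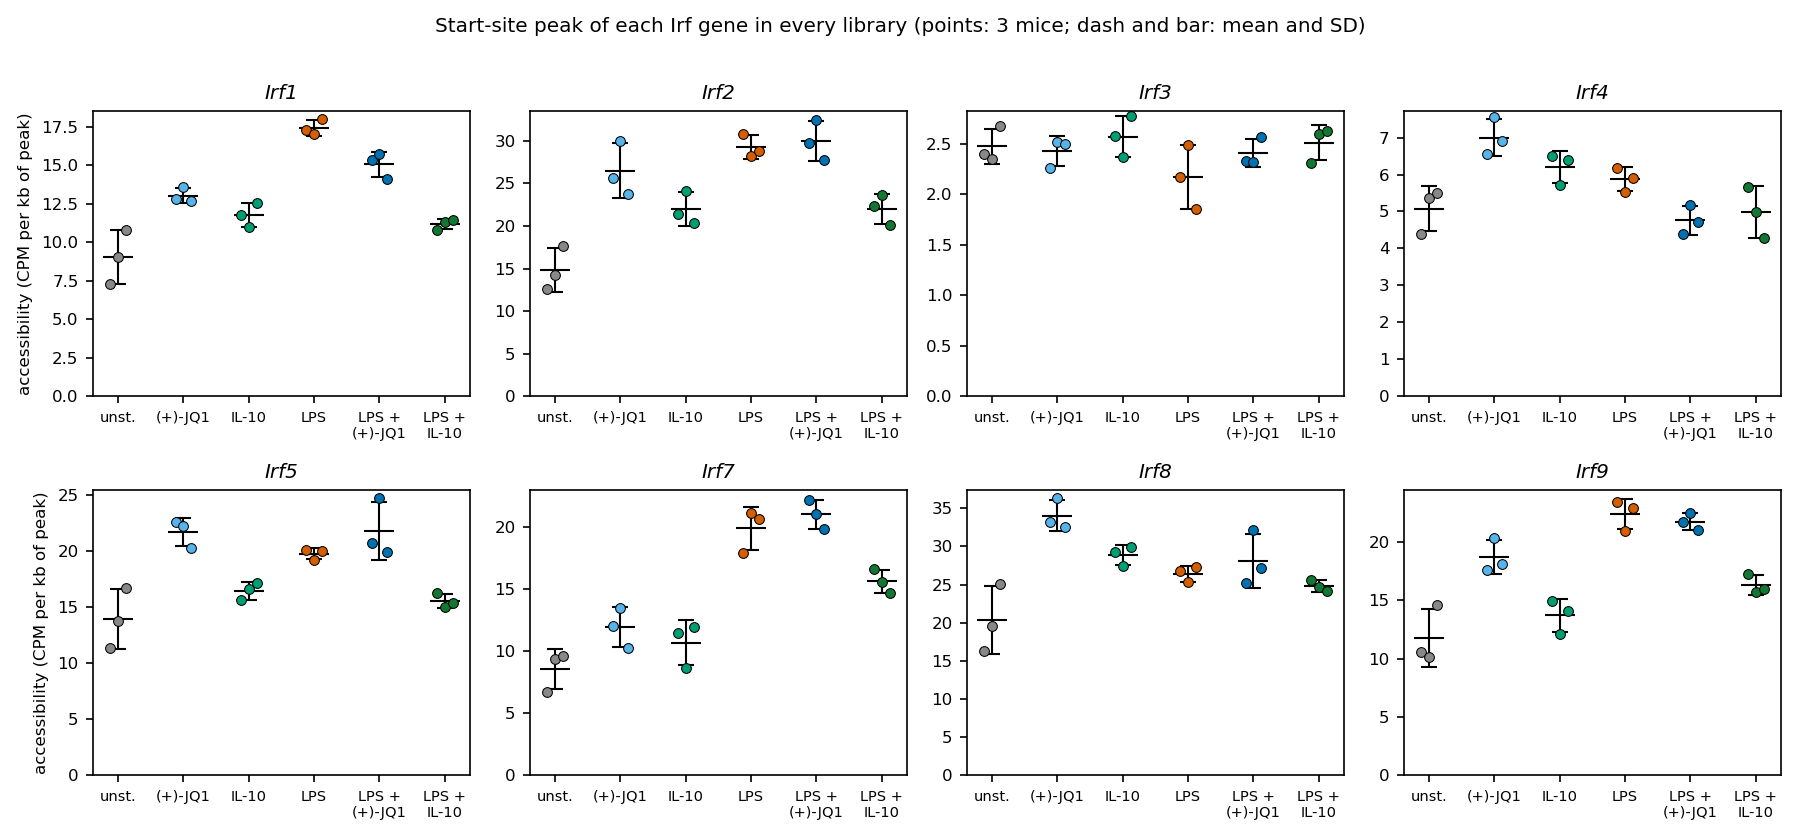
Accessibility of the start-site peak of each gene, in CPM per kb of peak, in the 6 conditions, with 1 point per mouse, a dash for the mean and a bar for the SD. Irf7 and Irf9 overlap their LPS values with (+)-JQ1 (log2 fold changes of 0.08 and −0.05), Irf1 falls with IL-10, and the 3 unstimulated libraries spread widely.

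The promoter peaks near other genes whose log2 CPM followed the Irf start-site peaks most closely over the 18 libraries were found by Pearson's r, as a description across samples that fall into LPS-treated and untreated groups and share depth and scaling. For Irf1 these were peaks near Rnf135 (r = 0.969), Ccdc122 (0.965) and Eif3c (0.961). For Irf7 they were near Slc2a6, Parp14 and Pla2g4a (0.965 each), and for Irf9 near Zfp719 (0.969), A630001G21Rik (0.969) and Daxx (0.968). For Irf2 they were near 4932438A13Rik (0.973), Psma5 (0.969) and Tmem229b (0.969), for Irf5 near Skil (0.96), Abcc5 (0.958) and Ftsjd2 (0.958), and for Irf8 near Csrp2bp (0.978), Trmu (0.974) and Wdfy3 (0.973). The closest were weaker for Irf4, near Cdon (0.939), Rabgap1l (0.912) and Nup210 (0.912), and for Irf3, near Sh2b3 (0.854), Cnih2 (0.845) and Zdhhc16 (0.809).

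(+)-JQ1 and IL-10 differed directly at a minority of Irf peaks under LPS. Between LPS + (+)-JQ1 and LPS + IL-10, 7 Irf peaks were higher with (+)-JQ1 (4.19%, against 3.43% of all tested peaks) and 5 were lower (2.99%, against 4.68%), shares close to the background. The numbers were 4 and 8 when scaled by total counts, 4 and 5 by loess, and 1 and 4 when replicate 2 was left out. The peaks of this comparison are named after their values were seen. Of the 5 lower with (+)-JQ1, 4 were Irf2 peaks. At Irf2 −5.2 kb, an intergenic peak upstream of the start that LPS raised (1.10 ± 0.15, FDR = 2.1e-09), LPS + (+)-JQ1 read 10.8, 9.61 and 10.5 CPM and LPS + IL-10 read 21.4, 16.7 and 20.9 CPM (−0.93 ± 0.14, FDR = 3.3e-07). The LPS values of 13.8, 15.7 and 15.9 CPM lay between them. At Irf2 +117.8 kb the values were 12.4, 14.5 and 16.8 and 23.3, 24.5 and 23.8 CPM (−0.70 ± 0.14, FDR = 0.0002). Both of these calls held in all 12 alternatives. Irf2 +83.2 kb (−0.59 ± 0.15, FDR = 0.0042) and Irf2 +89.3 kb (−0.64 ± 0.15, FDR = 0.0013), both intronic, lost their calls without replicate 1. The fifth, Irf9 +8.2 kb, read 8.06, 7.7 and 8.92 and 11.9, 10.7 and 12.9 CPM (−0.52 ± 0.15, FDR = 0.014; lost with loess offsets and without replicate 2 or 3).

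The largest called difference in the other direction was at Irf4 −11.0 kb, with 6.91, 8.57 and 8.41 CPM with LPS + (+)-JQ1 and 3.45, 4.98 and 4.5 CPM with LPS + IL-10 (0.90 ± 0.17, FDR = 9.0e-05), the one call in this direction that held in all 12 alternatives. The other 6 were Irf1 +16.1 kb (0.52 on the log2 scale), Irf2 +16.7 kb (0.63), Irf3 +19.9 kb (0.58), Irf5 −2.6 kb (0.55), Irf5 +20.3 kb (0.64) and Irf9 −12.3 kb (0.62), each lost without replicate 2. By edgeR and DESeq2, 0 Irf7 and 0 Irf8 peaks were called in this comparison, while at an unadjusted p under 0.05, 2 Irf7 peaks were higher and 0 lower, and 1 Irf8 peak was higher and 3 lower.

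**Figure D5:**
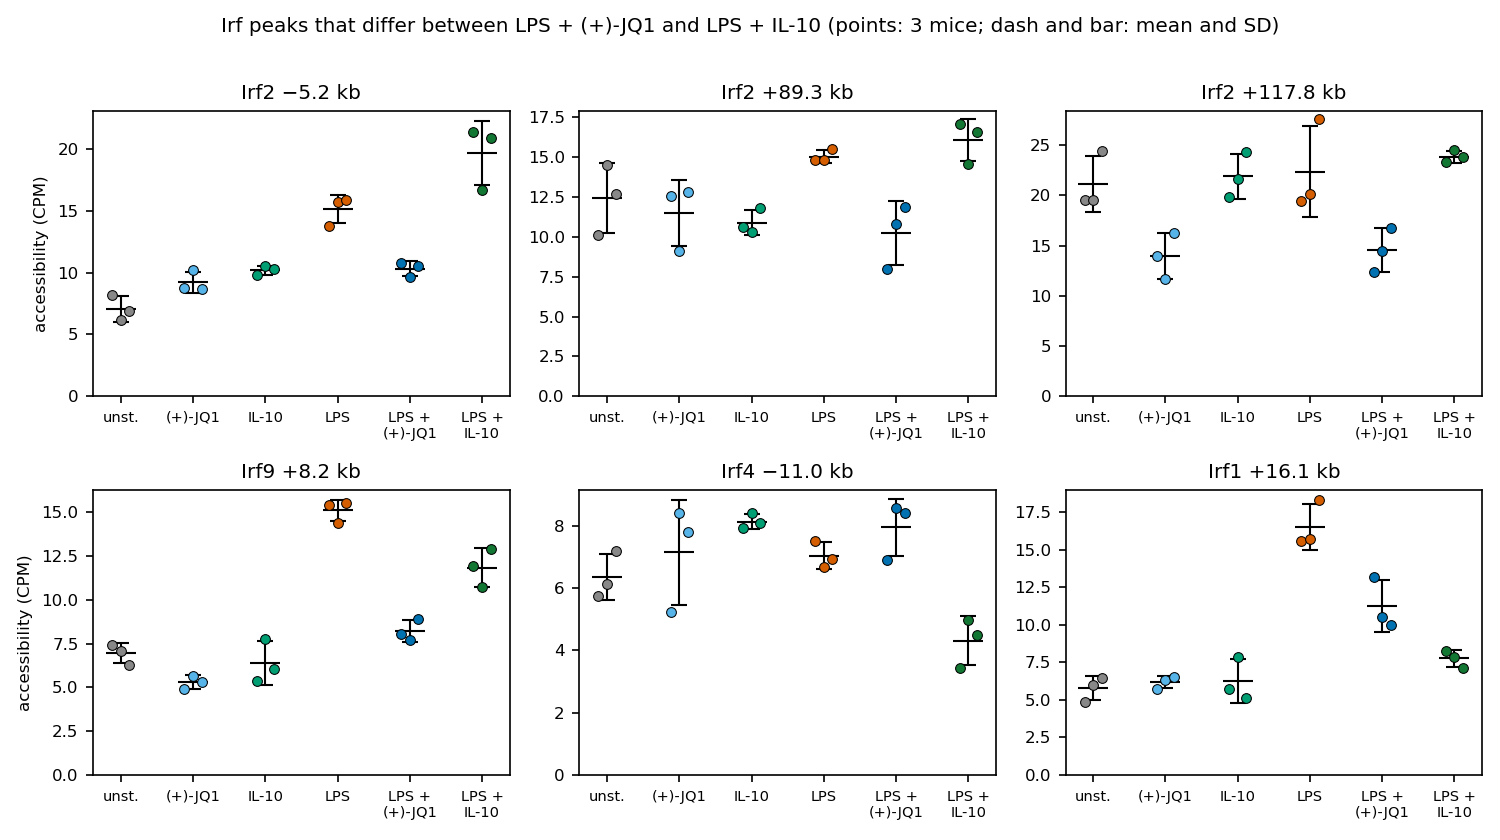
Accessibility in CPM of 6 of the 12 Irf peaks that differed between LPS + (+)-JQ1 and LPS + IL-10, in the 6 conditions, with 1 point per mouse, a dash for the mean and a bar for the SD. Irf2 −5.2 kb, Irf2 +89.3 kb, Irf2 +117.8 kb and Irf9 +8.2 kb are lower with (+)-JQ1, and Irf4 −11.0 kb and Irf1 +16.1 kb are lower with IL-10.

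Without LPS, calls at the Irf peaks depended on how the unstimulated libraries were scaled. With (+)-JQ1 alone, 18 Irf peaks were higher (10.8%, against 7.85% of all tested peaks) and 4 lower (2.4%, against 3.15%). With total counts the split was 6 and 29, with loess offsets 2 and 14, and 13 and 9 among peaks that reached 10 counts in all libraries. These splits were 3828 and 27370, 2559 and 4415, and 10423 and 7916 over all tested peaks. Leaving out replicate 1, 2 or 3 gave 15 and 2, 7 and 1, and 22 and 6. Of the Irf promoter peaks 18.6% were higher, against 22.9% of all promoter peaks. With IL-10 alone, 17 were higher (10.2%, against 5.16%) and 1 lower (0.599%, against 3.5%). The split was 1 and 6 when scaled by total counts, 0 and 2 by loess and 2 and 5 under the filter at 10 counts. Over all tested peaks these were 2464 and 16658, 2751 and 3173, and 4977 and 6059. Without replicates 1, 2 and 3 the split of the Irf peaks was 8 and 1, 1 and 0, and 23 and 3.

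The largest rise with (+)-JQ1 alone, at Irf2 +105.4 kb over a coding exon near the 3′ end, was from 7.96, 9.51 and 12.3 to 18.2, 22.3 and 21.5 CPM (1.05 ± 0.15, FDR = 2.0e-07). It held in all 12 alternatives, as did Irf2 +49.8 kb (0.92 ± 0.15, FDR = 1.5e-06). The largest called fall, at Irf3 +23.1 kb in Rras, was from 7.5, 4.51 and 5.53 to 3.46, 3.15 and 3.87 CPM (−0.72 ± 0.20, FDR = 0.0063, lost without replicate 1). At Irf2 +117.8 kb, which (+)-JQ1 also lowered under LPS, the level was 14, 11.7 and 16.3 CPM with (+)-JQ1 alone (−0.59 ± 0.15, FDR = 0.0018; lost without replicate 2). The largest called rise with IL-10 alone, at Irf2 +112.0 kb, was from 10.7, 17.5 and 19.2 to 25.8, 25 and 27.3 CPM (0.71 ± 0.14, FDR = 0.00034, lost with loess offsets). The called fall with IL-10 alone, at Irf5 +20.3 kb, was from 8.43, 10.2 and 8.66 to 6.05, 5.25 and 5.54 CPM (−0.70 ± 0.16, FDR = 0.0018, lost without replicate 2). The start-site peak of Irf8 (Irf8 +0.4 kb) was called higher with (+)-JQ1 alone (0.74 ± 0.14, FDR = 1.7e-05), and with IL-10 alone at the edge of the threshold (0.50 ± 0.14, FDR = 0.0078). Both calls were lost with total counts, loess offsets and without replicate 2. Of the Irf1 peaks with the largest LPS rises, Irf1 +10.9 kb read 23, 18.1 and 19.8 CPM with (+)-JQ1 alone (−0.05 ± 0.14, FDR = 0.88), within the unstimulated range or close to it. With IL-10 alone it read 26.7, 31.7 and 32.9 CPM and was called higher (0.53 ± 0.14, FDR = 0.0058), as was Irf1 +26.9 kb (0.69 ± 0.22, FDR = 0.032). Both of these calls were lost with total counts and loess offsets, and all values lay below those with LPS.

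Whether a treatment changed the response to LPS was tested by the interaction, the LPS effect with the treatment minus that without it. For (+)-JQ1, 15 Irf peaks had a negative interaction (8.98%, against 3.19% of all tested peaks) and 0 a positive one by edgeR and DESeq2 (background 0.649%), with 4 higher at an unadjusted p under 0.05. For IL-10, 34 had a negative one (20.4%, against 5.9%) and 1 a positive one (0.599%, against 2.01%). Negative interactions were more frequent at promoter than at distal peaks in general. For (+)-JQ1 they were called at 16.9% of Irf promoter and 4.63% of Irf distal peaks, against 11.2% and 1.33% of all promoter and distal peaks. For IL-10 the shares were 27.1% and 16.7%, against 16.9% and 3.33%. A negative interaction need not be a weaker rise, nor a lower level under LPS. By the ratio of group means, the LPS effect kept its sign and was smaller with the treatment at 8 of the 15 peaks for (+)-JQ1 and at 20 of the 35 for IL-10, and had the opposite sign at the other 7 and 15, several of them close to 0. At Irf4 +0.8 kb the log2 ratio was 0.21 without and −0.56 with (+)-JQ1, and at Irf4 −11.0 kb it was 0.15 without and −0.92 with IL-10. These values rest on the unstimulated libraries. With total counts the splits were 3 positive and 8 negative for (+)-JQ1 and 3 and 17 for IL-10. Over all tested peaks they were 4674 and 1838, and 12207 and 5152, so the balance turned there but not at the Irf peaks. With loess offsets they were 1 and 3, and 2 and 14, against 1536 and 1026, and 4307 and 3644 over all tested peaks. The number of negative interactions was 3, 0 and 23 for (+)-JQ1 and 21, 7 and 27 for IL-10 without replicates 1, 2 and 3. Over all tested peaks it was 823, 87 and 9477 for (+)-JQ1, and 5653, 1135 and 11475 for IL-10. Under all 3 other scalings (DESeq2 size factors, total counts and loess offsets), 3 of the 15 negative interactions with (+)-JQ1 remained, at Irf1 +26.9 kb (−1.35 ± 0.29, FDR = 0.0034), Irf2 −5.2 kb (−0.93 ± 0.21, FDR = 0.0063) and Irf2 +105.4 kb (−1.12 ± 0.21, FDR = 0.00063). For IL-10, 10 of the 34 remained, 6 of them at Irf1, 2 at Irf7 and 1 each at Irf2 and Irf4. At Irf1 +10.9 kb the LPS response was 2.55 on the log2 scale, and the interaction with IL-10 was −1.88 ± 0.19, FDR = 7.9e-12. The largest interaction with IL-10 was at Irf1 +21.3 kb (−2.13 ± 0.62, FDR = 0.017; lost in DESeq2 and on leaving out any 1 replicate). The one positive interaction was at Irf8 +5.1 kb (0.61 ± 0.20, FDR = 0.042), where the log2 ratio of means was −0.22 without and 0.38 with IL-10. It was lost with DESeq2 size factors and on leaving out any 1 replicate.

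The motifs searched in the central 300 bases are given for the Irf peaks beside all peaks of the same class. The interferon response core was in 3 of 59 Irf promoter peaks (5.08%) and 3 of 108 distal ones (2.78%), against 3.67% and 4.57% of all promoter and distal peaks. AP-1 was in 6.78% and 15.7% of them, against 7.98% and 13%, and kappaB in 10.2% and 4.63%, against 8.02% and 5.51%. STAT was in 8.47% and 9.26%, against 7.46% and 9.03%, and PU.1 in 3.39% and 2.78%, against 3.02% and 4.95%. The 6 Irf peaks with an interferon response core in the centre were Irf1 +26.9 kb, Irf2 +103.1 kb, Irf4 −24.1 kb, Irf7 +15.6 kb, Irf9 −25.0 kb and Irf9 −21.9 kb. All but Irf4 −24.1 kb (0.72 ± 0.34, FDR = 0.11) rose with LPS, by log2 fold changes of 3.08, 0.55, 1.61, 0.74 and 0.78. The call was lost at Irf2 +103.1 kb in 5 alternatives (total counts, loess offsets, the filter at 10 counts and without replicate 1 or 2) and at Irf9 −25.0 kb with loess offsets, and 31.7% of all Irf peaks and 11.7% of all tested peaks rose. These are few peaks, and the centre of a wide peak need not be its most open point.

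Other genes of the pathway were described by the same 25 kb rule. Over all tested peaks, 11.7% rose and 10.2% fell with LPS, 3.49% were lower and 1.74% higher with (+)-JQ1 under LPS, and 4.51% were lower and 4.26% higher with IL-10. Of 333 peaks around 13 genes of the sensors, adaptors and kinases that act before the IRFs, 109 rose and 9 fell with LPS (32.7% and 2.7%, median 0.33). In this list 62 were lower with (+)-JQ1 (18.6%) and 46 with IL-10 (13.8%), and 3 and 4 were higher. Most of these lower peaks lay around a single gene, Ifih1, the sensor of long double-stranded RNA, with 42 of the 62 and 40 of the 46, while Tbk1 had 1 and 0, and Ticam1 and Myd88 had 0 and 0. Of 313 peaks around 12 partners and interferon receptor signalling genes, 87 rose and 14 fell with LPS (27.8% and 4.47%, median 0.24). In this list 23 were lower and 7 higher with (+)-JQ1 (7.35% and 2.24%), while 16 were lower and 27 higher with IL-10 (5.11% and 8.63%). Counted per gene, 12 of the peaks higher with IL-10 lay around Ifnar1 and 13 around Ifnar2, the subunits of the interferon receptor. As with the Irf windows, a peak in such a window need not belong to the named gene, and the other genes in these windows were not listed. Of 285 peaks around 14 interferon and IRF target genes, such as Ifnb1, Ifit1, Mx1 and Cxcl10, 198 rose and 1 fell with LPS (69.5% and 0.351%, median 1.25). In this list 98 were lower and 1 higher with (+)-JQ1 (34.4% and 0.351%), and 113 and 1 with IL-10 (39.6% and 0.351%).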

How the data were processed

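ATAC-seq was performed in 18 libraries from 3 mice in 6 conditions. The authors aligned reads to mm9 with bowtie2, called peaks per sample with MACS2, merged them and classed them as promoter or distal with ChIPseeker, and the deposited values are raw counts of reads per peak. The counting tool is not given in the sources used here. Another 6 columns that match no sample were not used.

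Differential accessibility came from edgeR version 4.0.16 under R version 4.3.3 (quasi-likelihood test, 1 fit of the 6 groups, filterByExpr, TMM, Benjamini-Hochberg adjustment over 194230 peaks). On simulated counts for LPS against unstimulated with 200 of 193794 peaks changed by 1.5 on the log2 scale, 167 (83.5%) were recovered and 7 unchanged peaks were called. The changed peaks were better-covered ones, raised and lowered in equal number, and all groups were drawn from the unstimulated levels. In the data 22790 peaks rose and 19802 fell, so this run could not test the scaling of the unstimulated libraries. Alternatives were DESeq2 1.42.0, other scalings (size factors, total counts, loess offsets from limma 3.58.1), filters, lane, the groups compared alone, a replicate block and leaving out each replicate.

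Named peaks are the start-site peaks, the largest called rise and fall of each gene in the 3 main comparisons and over all genes for each treatment alone, and the called interactions. Other peaks were named after their values were seen. The members, lists and motifs were chosen with earlier results of these data known. The series calls the samples matched and the methods name 3 mice, so replicate numbers were taken to mark the mouse, which the labels do not state. The deviations of libraries with the same number correlated with a mean r of 0.00573 over 45 pairs, against −0.00286 over 90 others. Replicate and sequencing lane are partly confounded. In replicate 2 the groups without LPS were on lane 5 and those with LPS on lane 6. Comparisons of LPS with unstimulated BMDMs therefore carry a lane difference in that replicate. In the interactions a lane difference that is constant on the log2 scale cancels, because it enters the LPS effect with and without the treatment alike. With lane as a covariate, 52 Irf peaks rose and 3 fell with LPS. Interactions then numbered 0 higher and 14 lower for (+)-JQ1, and 1 and 34 for IL-10. Totals of 12020526 to 25908198 counts per library set the precision, and p-values cover the spread between the 3 replicates only. Some items of the lists are not reported here.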

Additional observations from a re-analysis of the deposited data

Results flagged for a closer look

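The response to LPS differed between BMDMs with and without (+)-JQ1 at 15 Irf peaks, by the interaction term of the edgeR fit. The value at each is the log2 fold change with LPS under (+)-JQ1 minus that without it. A negative value can be a smaller rise or a change of sign: by the ratio of group means the LPS effect was smaller with the same sign at 8 of these peaks and of opposite sign at 7. It need not be a lower level under LPS. At Irf2 +0.5 kb the means were 33.4 CPM with LPS and 34.3 with LPS + (+)-JQ1, with 17 unstimulated and 30.2 with (+)-JQ1 alone. At Irf1 +10.9 kb they were 124 and 66.2 CPM, with 21 unstimulated and 20.3 with (+)-JQ1 alone. At Irf1 the values were −0.84 at −6.4 kb, −0.74 at +2.5 kb, −0.85 at +10.9 kb and −1.35 at +26.9 kb. At Irf2 the values were −0.93 at −5.2 kb, −0.80 at +0.5 kb, −1.12 at +105.4 kb and −0.70 at +112.0 kb. At Irf3 it was −0.64 at +19.9 kb. At Irf4 it was −0.76 at +0.8 kb. At Irf8 the values were −0.65 at +0.4 kb and −0.80 at +23.4 kb. At Irf9 the values were −0.77 at −18.0 kb, −0.78 at −12.3 kb and −0.71 at −0.2 kb. None of these 15 calls held in every alternative fit: each was lost without replicate 2. In that fit 87 of all 194220 tested peaks had a negative interaction with (+)-JQ1, against 6202 with all replicates in.

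The response to LPS differed in the same sense between BMDMs with and without IL-10 at 35 Irf peaks, 34 with a negative interaction and 1 with a positive one, and the LPS effect was smaller with the same sign at 20 of them and of opposite sign at 15. At Irf1 the values were −1.10 at −6.4 kb, −1.02 at +2.5 kb, −1.12 at +6.5 kb, −1.88 at +10.9 kb, −1.19 at +16.1 kb, −1.69 at +17.9 kb, −1.35 at +19.9 kb, −2.13 at +21.3 kb, −1.83 at +26.9 kb and −1.13 at +28.6 kb. At Irf2 the values were −0.97 at +0.5 kb, −0.84 at +39.1 kb, −0.70 at +103.1 kb, −1.05 at +105.4 kb and −0.75 at +112.0 kb. At Irf3 it was −0.88 at +19.9 kb. At Irf4 it was −1.06 at −11.0 kb. At Irf5 the values were −0.69 at −2.6 kb, −0.58 at +1.0 kb and −0.81 at +15.4 kb. At Irf7 the values were −1.35 at +15.6 kb, −1.11 at +8.0 kb, −0.67 at +0.9 kb, −0.65 at −4.9 kb and −1.81 at −14.5 kb. At Irf8 the values were −0.87 at −24.5 kb, −0.80 at −19.7 kb, −0.76 at −15.3 kb, −0.59 at +0.4 kb, 0.61 at +5.1 kb and −0.70 at +23.4 kb. At Irf9 the values were −0.69 at −25.0 kb, −0.76 at −18.0 kb, −1.09 at −12.3 kb and −0.68 at −0.2 kb. The calls at Irf1 +10.9, +17.9 and +26.9 kb and at Irf2 +105.4 kb held in every alternative fit. The interactions use the unstimulated libraries, whose scaling factors stood apart, and the part of this in these values was not tested beyond the alternative scalings.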

How the results depend on the processing

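Of the 53 Irf peaks raised by LPS, 33 kept their call in every alternative fit that tested them, as did 5 of 24 lowered by (+)-JQ1 and 15 of 26 lowered by IL-10 under LPS. Leaving out each replicate in turn gave 1 to 3 peaks lowered by LPS, 8 to 18 lowered and 0 to 1 raised by (+)-JQ1 under LPS, and 1 to 4 raised by IL-10 under LPS. For (+)-JQ1 alone it gave 7 to 22 raised and 1 to 6 lowered, and for IL-10 alone 1 to 23 and 0 to 3. Between LPS + (+)-JQ1 and LPS + IL-10 it gave 1 to 9 higher. Interactions with (+)-JQ1 numbered 0 to 23 lower, and those with IL-10 7 to 27 lower and 0 higher. Among all tested peaks the lower ones numbered 87 to 9477 for (+)-JQ1 and 1135 to 11475 for IL-10.

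With total counts, 9 peaks were lowered by LPS, 6 were raised and 29 lowered by (+)-JQ1 alone, and 1 was raised and 6 lowered by IL-10 alone. Then 4 were higher and 8 lower with LPS + (+)-JQ1 than with LPS + IL-10, and the interactions numbered 3 higher and 8 lower for (+)-JQ1 and 3 and 17 for IL-10. With loess offsets, 2 were raised and 14 lowered by (+)-JQ1 alone, 0 and 2 by IL-10 alone, and 4 were higher with LPS + (+)-JQ1 than with LPS + IL-10. The interactions were then 1 higher and 3 lower for (+)-JQ1 and 2 and 14 for IL-10. With at least 10 counts required in each library, 9 were lowered by (+)-JQ1 alone, 2 raised and 5 lowered by IL-10 alone, and 1 interaction with (+)-JQ1 was higher. With DESeq2 size factors, 0 interactions with IL-10 were higher. The cause of these changes was not tested.

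The sign turned for values that were not called. With loess offsets the log2 fold change became −0.05 at Irf2 +0.5 kb with (+)-JQ1 under LPS, −0.04 at Irf8 +0.4 kb and −0.01 at Irf4 +0.8 kb with LPS, and 0.09 at Irf8 +0.4 kb with IL-10 under LPS. With total counts it was −0.02 at Irf4 +0.8 kb with LPS. Without 1 replicate the value with (+)-JQ1 under LPS became −0.05 at Irf2 +0.5 kb and −0.04 at Irf8 +0.4 kb (replicate 2), −0.04 at Irf7 +0.9 kb (replicate 1) and −0.00 at Irf3 +6.3 kb (replicate 3). The highest values on leaving out 1 replicate were 0.08, 0.17, 0.15 and 0.28 for these 4 peaks, in that order. Called interactions turned with loess offsets, to 0.02 at Irf3 +19.9 kb for (+)-JQ1 and to 0.14 at Irf5 +1.0 kb and 0.03 at Irf8 +0.4 kb for IL-10.

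In the fit with a replicate block, which treats same-numbered libraries as matched, the counts were 53 raised and 3 lowered by LPS, 24 lowered by (+)-JQ1 and 26 lowered by IL-10 under LPS, and 14 and 33 lower interactions. The interactions at Irf3 +19.9 kb (−0.63, edgeR adjusted p = 0.066) and Irf5 +1.0 kb (−0.58, edgeR adjusted p = 0.052) lost their calls with this replicate block, and it changed no other call of a named peak. Peaks with few reads, as low as 1 in a library at Irf4 −19.0 kb, limit the precision of the smallest levels.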
